A study of Homo sapiens with 6 samples.

Results

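The genes described here are 56 that encode the machinery carrying new proteins into the endoplasmic reticulum (ER) and from there towards the Golgi. They were chosen by symbol from a list of known components, with earlier results of these data known. All 56 are among the 18780 genes of the deposited table. Expression was measured by RNA sequencing in PC-3, an established human prostate cancer cell line. In 3 libraries the cells had received the plant compound trans-Gnetin H (TGH), which consists of 3 resveratrol units, for 24 h at a dose of 2.5 µM, and in 3 libraries the solvent dimethyl sulfoxide (DMSO) alone. All libraries come from this 1 cell line, and the labels do not say whether the replicates were separate cultures, so p-values measure the spread between these libraries. The title of the study names glucose deprivation of prostate cancer cells by this compound as its subject.

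Proteins bound for secretion or for membranes are recognised by the signal recognition particle (SRP) as they leave the ribosome, brought to a receptor on the ER and threaded through the Sec61 channel, where signal peptidase removes the signal sequence. Folded cargo leaves the ER in vesicles with a COPII coat, and escaped ER residents and empty receptors come back from the Golgi in vesicles with a COPI coat. Secretory cells, the prostate epithelium among them, depend on this route, and many of its genes are known to be under control of the unfolded protein response.

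Levels are given in TPM, a unit of transcript abundance that is scaled by transcript length and can be compared between genes. Differences are TGH minus DMSO in the deposited log2(TPM + 1) values, and on this scale the change of a low gene is understated. A gene is called higher or lower at an adjusted p under 0.05 (limma, Benjamini-Hochberg over the 12018 genes whose mean was 1 TPM or more). TPM are shares of a library, so more transcript of a gene per cell and less of other RNA cannot be told apart, nor can fewer cells with a transcript and less of it per cell. A value of 0 was listed for 3074 and 3185 genes in DMSO replicates 1 and 2 and for 1342 to 1530 genes in the other 4 libraries. The epithelial markers KRT8, KRT18, EPCAM and CDH1 summed to 1398 to 1421 TPM in DMSO and 1060 to 1068 TPM with TGH. The lower sum lay mostly in KRT8 (604 to 424 TPM on average) and KRT18 (578 to 421 TPM), while CDH1 was at 48.4 to 50.3 TPM in DMSO and 51.3 to 52.9 TPM with TGH. Immune markers summed to at most 0.365 TPM, endothelial markers to at most 0.313 TPM and fibroblast markers to at most 3.57 TPM. The part of the keratins' difference in the results was not tested.

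Transcripts of this route were higher with TGH at most of its steps. All 56 passed the filter on low values, and 39 were called higher, 5 lower and 12 neither. Over all genes tested 28.9% were called higher and 26.3% lower, 55.2% in all, against 69.6% and 8.93% of the 56. The largest rises were SEC11C, a catalytic subunit of signal peptidase (2.30-fold), SEC24D, a cargo adaptor of the COPII coat (1.90-fold), and USO1, the tether p115 that captures vesicles at the Golgi (1.61-fold). Folds are ratios of TPM + 1, taken from the log2 differences. Most other changes were small: these 3, 5.36% of the 56, were the only ones called with a change over 1.5-fold, near the 5.07% of all genes tested that were over 1.5-fold higher, and the median difference was 0.21, against 0.02 over all genes tested.

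The 3 TGH libraries lay above all 3 DMSO libraries for 40 of the 56 genes, where the background over all genes is 33.6%, and below all of them for 7, where it is 30.8%. Summed over the 56 genes the level was 4586 to 4652 TPM in the DMSO libraries and 5368 to 5421 TPM in the TGH libraries. Without DMSO replicates 1 and 2, the libraries with the most zeros, 39 genes were called higher and 3 lower, with DMSO replicate 3 assumed to vary like the TGH libraries. Of the 39 called higher with all libraries 38 were higher here too, ARCN1 (adjusted p = 0.077) was not and SRPR (0.0393) was called in addition, while SEC24B (0.0539) and SAR1A (0.105) were no longer called lower. Levels in DMSO ran from 5.28 ± 0.173 TPM for SEC61A2 to 312 ± 8.16 TPM for SEC61G (mean ± SD, n = 3). Across the 56 genes of these libraries Spearman's rho between the DMSO level and the difference was -0.12, a description over genes that share libraries and pathway.

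**Figure D1:**
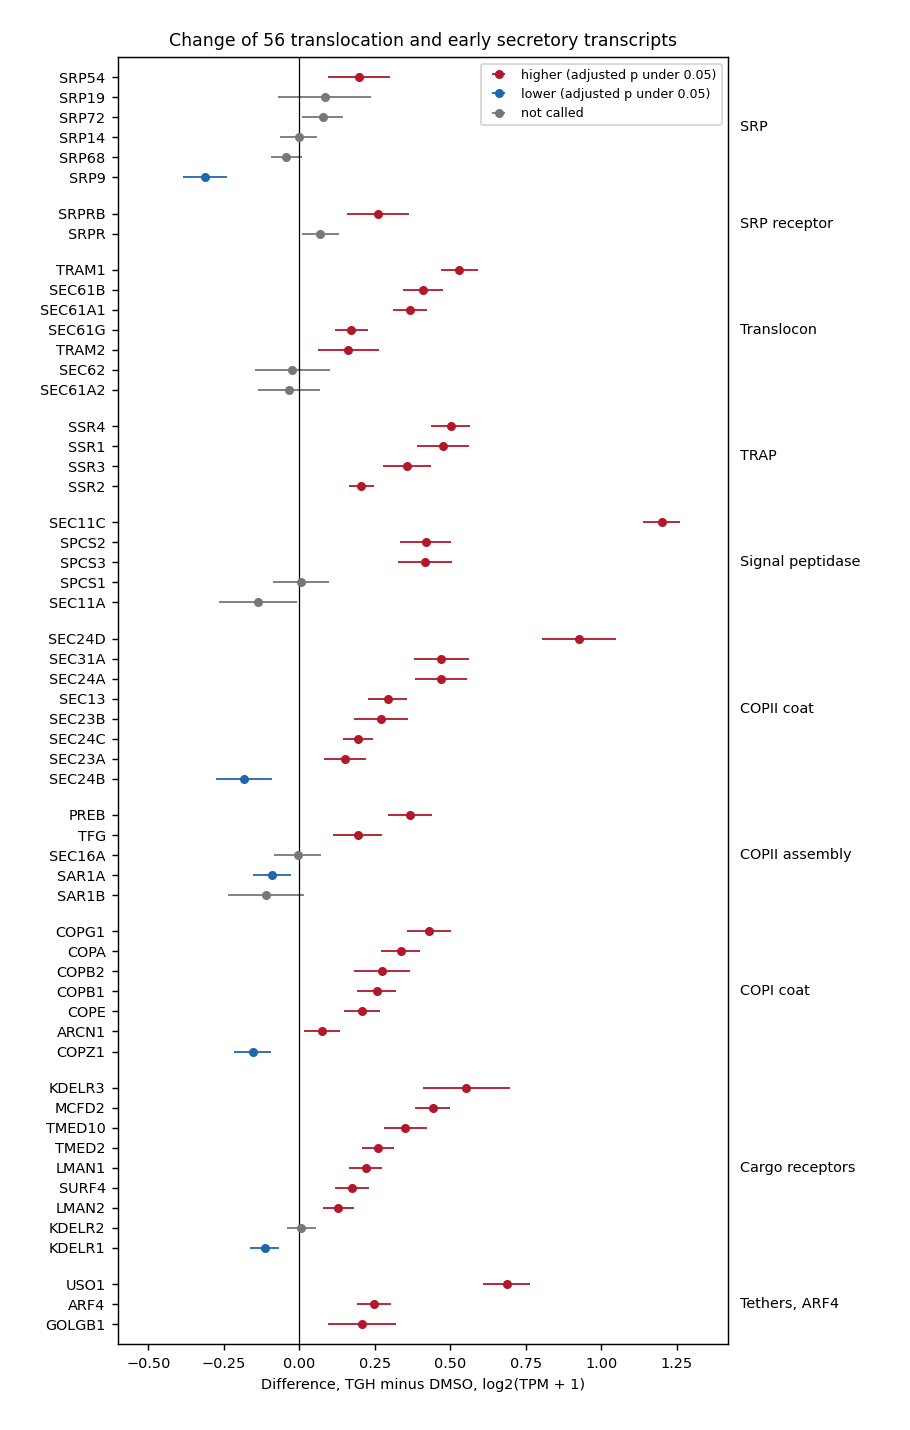
Difference between TGH and DMSO (x axis, log2(TPM + 1)) for each of the 56 genes (y axis, grouped by role), as the limma estimate (point) and its 95% confidence interval (line), coloured by call. Of these genes 39 are called higher, 5 lower and 12 neither. SEC11C and SEC24D stand to the right of all others.

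**Figure D2:**
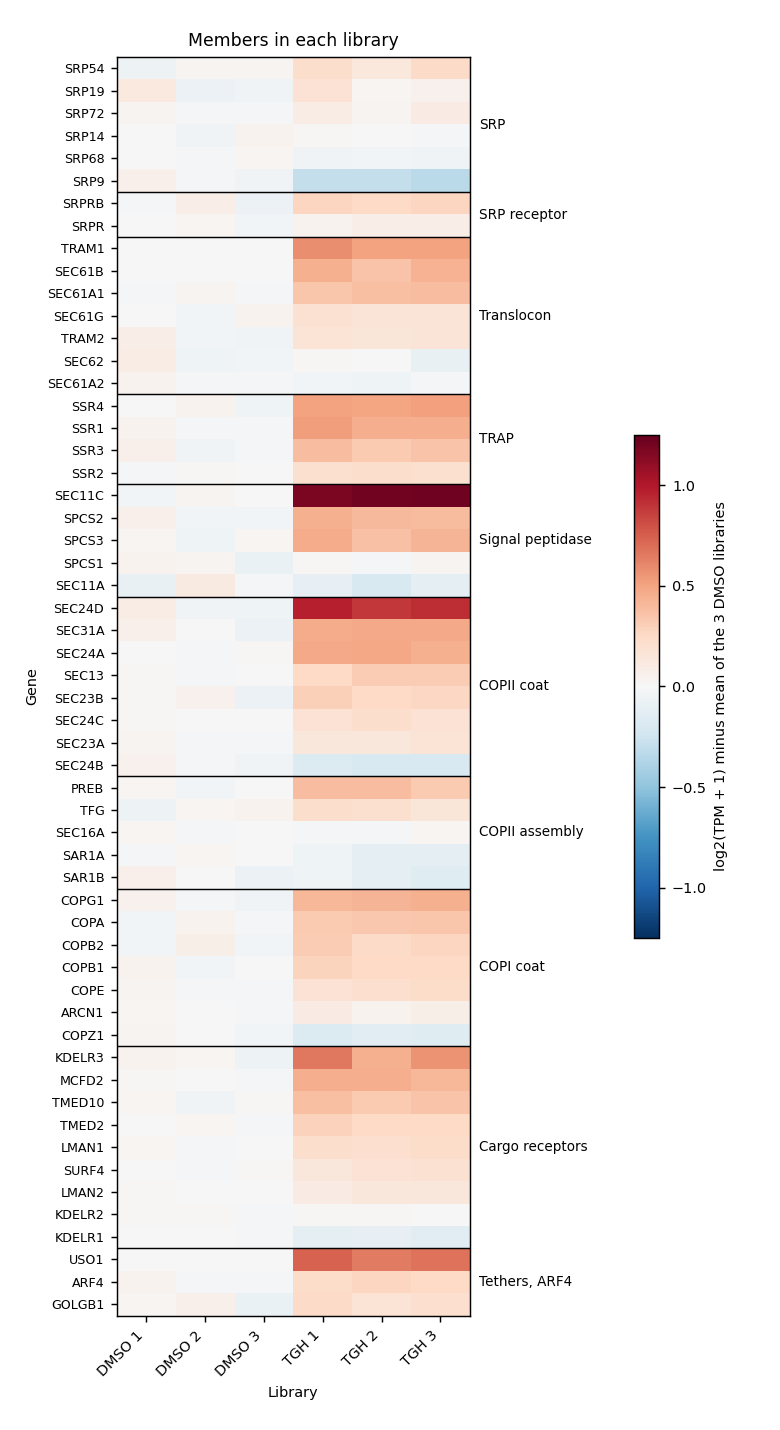
Level of each of the 56 genes (rows, grouped by role) in each of the 6 libraries (columns), as log2(TPM + 1) minus the mean of the 3 DMSO libraries. Red is above and blue below that mean. The 3 TGH columns resemble each other, with red in most rows and blue in SRP9, SEC24B and COPZ1.

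The SRP serves the first step, targeting, and its transcripts were mixed. Of 6 SRP proteins 1 was higher and 1 was lower, 4 had no call, and the median was 0.04. That is 16.7% in each direction, and with so few genes this is not far from the 28.9% higher and 26.3% lower over all genes tested. SRP9, which with SRP14 slows translation while the ribosome is being targeted, had 209, 199 and 195 TPM in DMSO replicates 1 to 3 and 163, 163 and 159 TPM in TGH replicates 1 to 3. Every TGH library was below every DMSO library, and SRP9 fell by 0.31 (SE 0.031, adjusted p = 0.00024), the largest fall among the 56. Its partner SRP14 had 229.6 ± 6.41 TPM in DMSO, 229 ± 3.47 TPM with TGH (mean ± SD, n = 3 each) and a difference of -0.00 (95% interval -0.06 to 0.06). SRP54, the GTPase that binds the signal sequence, had 37.1, 39.9 and 39.8 TPM in DMSO and 45.6, 42.7 and 46.0 TPM with TGH, libraries that did not overlap, and rose by 0.20 (SE 0.043, adjusted p = 0.00746). SRP19, SRP68 and SRP72, the other SRP proteins, had differences of 0.08, -0.04 and 0.08 and were not called. SRP72 was called as higher without DMSO replicate 1 (adjusted p = 0.0356) or TGH replicate 2 (0.0392) and after quantile normalization (0.0309). SRP68 was called as lower after median scaling (adjusted p = 0.0262).

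The SRP receptor has a GTPase subunit, SRPR, and a subunit that anchors it in the ER membrane, SRPRB. SRPRB was at 24.4, 26.1 and 23.4 TPM in DMSO and 29.8, 29.3 and 29.9 TPM with TGH, and rose by 0.26 (SE 0.043, adjusted p = 0.0023). SRPR was at 98.4, 99.6 and 95.3 TPM in DMSO and 101, 104 and 104 TPM with TGH. The SRPR groups did not overlap either, but its difference of 0.07 was not called (adjusted p = 0.0539). It was called as higher without DMSO replicate 2 (adjusted p = 0.0466), after quantile normalization (0.0223) and with DMSO replicate 3 as the only control (0.0393).

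In the channel and its neighbours the core subunits rose while their less used relatives did not all follow. Of 7 genes 5 were higher (71.4%, against 28.9% of all genes tested) and 2 were not called, with a median of 0.17. SEC61A1, which forms the pore, had 104, 107 and 104 TPM in DMSO and 133, 136 and 137 TPM with TGH, and rose by 0.37 (SE 0.023, adjusted p = 3.95e-05). SEC61B, a small subunit of the channel, went from 183, 185 and 185 TPM to 251, 236 and 249.7 TPM, a rise of 0.41 (SE 0.028, adjusted p = 5.02e-05). The third subunit, SEC61G, rose by 0.17. In all 3 the TGH libraries lay above the DMSO libraries. SEC61A2, a second form of the pore subunit, had 5.48, 5.18 and 5.17 TPM in DMSO and 5.11, 5.04 and 5.21 TPM with TGH, overlapping groups with a difference of -0.04 (95% interval -0.14 to 0.07). SEC62, which serves translocation after translation, was not called either (-0.02).

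TRAM1, a membrane protein next to the channel that meets the entering chain, had 146, 147 and 147 TPM in DMSO and 219.6, 208 and 208 TPM with TGH. All TGH libraries were well above the narrow DMSO range, and TRAM1 rose by 0.53 (SE 0.026, adjusted p = 1.51e-05). Its relative TRAM2 had 13.6, 12.5 and 12.4 TPM in DMSO and 14.6, 14.4 and 14.5 TPM with TGH and rose by 0.16 (SE 0.042, adjusted p = 0.0163). The TRAM2 call was lost without DMSO replicate 3 (adjusted p = 0.0504), TGH replicate 1 (0.0575) or TGH replicate 3 (0.055).

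The translocon-associated protein complex (TRAP) consists of 4 membrane proteins that sit beside Sec61 and aid the entry of some chains. All 4 were higher, with a median of 0.42, where 28.9% of all genes tested were called higher. SSR4 was at 198, 204 and 191 TPM in DMSO and 279, 278 and 283 TPM with TGH, and rose by 0.50 (SE 0.027, adjusted p = 2.04e-05). SSR1 was at 16.9, 16.1 and 16.0 TPM in DMSO and 23.9, 22.7 and 22.8 TPM with TGH, and rose by 0.48 (SE 0.036, adjusted p = 8.35e-05). The groups of both genes were clear of each other. SSR3 rose by 0.36 and SSR2 by 0.20. The levels of the 4 subunits were unequal, the highest being 12.9 times the lowest in DMSO and 12.1 times with TGH, and SSR1 was the lowest in both. The pseudogene SSR4P1, a copy that can share reads with SSR4, was at 0.378 to 1.23 TPM.

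Signal peptidase held the largest single change. The enzyme has 2 alternative catalytic subunits, SEC11A and SEC11C, and accessory subunits, SPCS1 to SPCS3. SEC11C had 78.3, 82.3 and 80.6 TPM in DMSO and 183, 187 and 188 TPM with TGH, and rose by 1.20 (SE 0.025, adjusted p = 7.03e-07). SEC11A had 70.0, 80.8 and 73.8 TPM in DMSO and 69.4, 65.5 and 68.9 TPM with TGH. For SEC11C the groups were far apart, while SEC11A was a little lower in every TGH library with a wide DMSO spread, and its difference of -0.14 was not called (adjusted p = 0.0687). SEC11A did pass as lower without DMSO replicate 1 (-0.18, adjusted p = 0.0192) and after median scaling (-0.17, adjusted p = 0.0307). SEC11C made up 51.8% ± 1.22 of the summed TPM of both catalytic subunits in DMSO and 73.3% ± 0.802 with TGH (SD, n = 3 each), and their sum went from 155 ± 7.44 to 254 ± 2.34 TPM.

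Of the accessory subunits, SPCS2 had 48.1, 44.9 and 44.7 TPM in DMSO and 63.0, 61.1 and 60.9 TPM with TGH and rose by 0.42 (SE 0.035, adjusted p = 0.000127). SPCS3, an essential subunit of the enzyme, rose by 0.42. SPCS1 had a difference of 0.01 (95% interval -0.09 to 0.10) and was not called.

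The COPII coat, which buds vesicles from the ER, was higher in 7 of its 8 subunits and lower in 1, with a median of 0.28. These shares (87.5% and 12.5%) stand against 28.9% and 26.3% over all genes tested. SEC24 proteins select the cargo, and the 4 forms differ in what they bind. SEC24D had 9.70, 8.73 and 8.62 TPM in DMSO and 18.6, 17.5 and 18.0 TPM with TGH, and rose by 0.93 (SE 0.051, adjusted p = 2.26e-05). SEC24A had 6.28, 6.25 and 6.40 TPM in DMSO and 9.16, 9.24 and 8.92 TPM with TGH, and rose by 0.47 (SE 0.036, adjusted p = 8.65e-05). SEC24C, by far the most abundant form, had 119, 118 and 118 TPM in DMSO and 134, 138 and 134 TPM with TGH, and rose by 0.20 (SE 0.021, adjusted p = 0.000336). In these 3 forms every TGH library was above every DMSO library. SEC24B went the other way, from 10.7, 10.1 and 9.95 TPM to 9.01, 8.86 and 8.87 TPM, and fell by 0.18 (SE 0.039, adjusted p = 0.00693). With DMSO replicate 3 as the only control SEC24B was not called (-0.14, adjusted p = 0.0539). An antisense gene, SEC24B-AS1, was listed at 0.074 to 0.709 TPM. The library kit keeps the strand, but whether the counting used it is not given in the sources used here.

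As a share of the summed SEC24 TPM, SEC24C went from 82.2% ± 0.414 in DMSO to 79.0% ± 0.492 with TGH and SEC24D from 6.27% ± 0.327 to 10.5% ± 0.397 (SD, n = 3 each). SEC24D was thus below SEC24B in each DMSO library and above it in each TGH library. Among the other coat subunits, SEC31A of the outer cage had 29.8, 28.7 and 27.1 TPM in DMSO and 39.8, 39.9 and 39.9 TPM with TGH and rose by 0.47 (SE 0.038, adjusted p = 0.000105), and its partner SEC13 rose by 0.29. SEC23 proteins pair with SEC24 and switch off the GTPase SAR1. SEC23B had 44.8, 46.1 and 42.2 TPM in DMSO and 54.8, 52.7 and 53.4 TPM with TGH and rose by 0.27. SEC23A had 31.7, 30.3 and 30.5 TPM in DMSO and 34.1, 34.3 and 34.7 TPM with TGH and rose by 0.15. Neither SEC23 gene had groups that overlapped.

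The factors that start COPII assembly were mixed, with 2 higher, 1 lower and 2 not called of 5 and a median of -0.01. With so few genes these shares (40% and 20%) are not far from the 28.9% and 26.3% over all genes tested. PREB, the exchange factor SEC12 that loads SAR1 with GTP, had 40.4, 38.7 and 39.9 TPM in DMSO and 52.1, 52.1 and 49.9 TPM with TGH and rose by 0.37 (SE 0.030, adjusted p = 0.000115). TFG, which organises ER exit sites, had 116, 123 and 125 TPM in DMSO and 141, 139 and 135 TPM with TGH and rose by 0.19 (SE 0.034, adjusted p = 0.00333). Both had groups that did not overlap. SAR1A, the main form of the GTPase, had 76.4, 79.0 and 77.2 TPM in DMSO and 74.6, 71.7 and 71.8 TPM with TGH and fell by 0.09 (SE 0.026, adjusted p = 0.0245), a call lost under 8 of 16 alternatives, among them without DMSO replicate 2 (adjusted p = 0.0642) or 3 (0.0528) and without TGH replicate 2 (0.0836) or 3 (0.0894). SAR1B had 7.33, 7.01 and 6.56 TPM in DMSO and 6.67, 6.29 and 6.15 TPM with TGH, overlapping groups that were not called (-0.11, adjusted p = 0.114). SEC16A, the scaffold of exit sites, had a difference of -0.01 (95% interval -0.08 to 0.07).

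The COPI coat is a complex of 7 subunits that is recruited to Golgi membranes as a unit. Here 6 of the 7 were higher (85.7%) and 1 lower (14.3%), against 28.9% and 26.3% of all genes tested. The median was 0.26. COPG1 had 46.3, 44.3 and 43.4 TPM in DMSO and 60.0, 60.3 and 61.2 TPM with TGH and rose by 0.43 (SE 0.030, adjusted p = 6.07e-05). COPA, the alpha subunit, had 50.9, 53.7 and 51.7 TPM in DMSO and 65.7, 65.9 and 66.4 TPM with TGH and rose by 0.34 (SE 0.027, adjusted p = 0.00011). Both were higher in every TGH library. COPB2 rose by 0.27, COPB1 by 0.26 and COPE by 0.21. ARCN1, the delta subunit, rose by 0.07 (adjusted p = 0.0398), and this call was lost under 8 of 16 alternatives, such as median scaling (adjusted p = 0.187) or leaving out DMSO replicate 2 (0.0811) or 3 (0.105) or TGH replicate 1 (0.112) or 3 (0.11). COPZ1, the zeta subunit, fell by 0.16 (SE 0.025, adjusted p = 0.00219), from 92.5, 90.6 and 88.1 TPM to 80.3, 81.7 and 81.2 TPM. The highest subunit, COPE, was at 3.94 times the lowest, COPG1, in DMSO, and the ratio of highest to lowest was 3.44 with TGH.

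Cargo receptors and retrieval receptors were higher in 7 of 9 cases, lower in 1 and not called in 1, with a median of 0.22. That is 77.8% higher and 11.1% lower, against 28.9% and 26.3% of all genes tested. KDEL receptors catch escaped ER chaperones in the Golgi and return them. KDELR3, the least abundant of them, had 17.8, 17.6 and 16.5 TPM in DMSO and 27.9, 23.8 and 25.9 TPM with TGH and rose by 0.55 (SE 0.061, adjusted p = 0.000399). KDELR1 had 108, 108 and 106 TPM in DMSO and 99.5, 100.01 and 98.1 TPM with TGH and fell by 0.11 (SE 0.020, adjusted p = 0.00312). KDELR2, the most abundant, had 148, 147 and 144 TPM in DMSO and 148, 147 and 145 TPM with TGH, overlapping groups with a difference of 0.01 (95% interval -0.04 to 0.06). The sum of the 3 receptors was 271 ± 3.98 TPM in DMSO and 272 ± 2.87 TPM with TGH. KDELR3 went from 6.38% ± 0.171 to 9.51% ± 0.677 of that sum (SD, n = 3 each).

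LMAN1, a lectin, and MCFD2, its soluble partner, carry glycoproteins such as coagulation factors out of the ER. MCFD2 had 45.7, 44.9 and 44.7 TPM in DMSO and 62.0, 62.2 and 60.6 TPM with TGH and rose by 0.44 (SE 0.024, adjusted p = 2.14e-05). LMAN1 rose by 0.22 (SE 0.023, adjusted p = 0.000306). TMED10 and TMED2, p24 proteins that cycle between ER and Golgi, rose by 0.35 and 0.26. SURF4, a receptor for soluble cargo, rose by 0.17, and LMAN2, a lectin of the early secretory pathway, by 0.13. The pseudogene TMED10P1, whose reads may be confused with those of TMED10, was at 1.80 to 2.28 TPM, against 37.3 ± 1.01 TPM of TMED10 in DMSO (SD, n = 3).

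At the Golgi entry all 3 genes rose, where 28.9% of all genes tested were called higher. USO1 had 21.8, 21.9 and 22.0 TPM in DMSO and 37.2, 34.8 and 35.6 TPM with TGH and rose by 0.69 (SE 0.032, adjusted p = 1.33e-05). ARF4, a GTPase of Golgi membranes, had 189, 181 and 180.5 TPM in DMSO and 216, 221 and 218 TPM with TGH and rose by 0.25 (SE 0.024, adjusted p = 0.000227). Neither gene's groups overlapped. GOLGB1, the long Golgi tether giantin, rose by 0.21.

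Relatives within a family were compared directly by the log2 ratio of their TPM in each library. Among single genes tested, 33.6% had all TGH libraries above all DMSO libraries and 30.8% had them below. No such share was computed for the ratios of other gene pairs. In 9 of the 10 pairs of relatives the ratios of the TGH libraries did not overlap those of the DMSO libraries. Each of these 9 had p = 0.1 in a two-sided exact permutation test, the smallest that 3 against 3 libraries allow (0.111 with Benjamini-Hochberg adjustment over the 10 pairs), so this test cannot bring these differences under 0.05. The ratio of SEC11C to SEC11A was 0.161, 0.026 and 0.127 in DMSO and 1.40, 1.52 and 1.45 with TGH, a difference of 1.35. For SEC24D the ratio moved by 1.20 against SEC24B, by 0.80 against SEC24C and by 0.47 against SEC24A. KDELR3 moved by 0.69 against KDELR1 and KDELR2 by 0.12 against KDELR1. SEC23B moved by 0.12 against SEC23A, TRAM2 by -0.36 against TRAM1 and SEC61A2 by -0.41 against SEC61A1. The pair SAR1B and SAR1A overlapped, with -0.04 (exact p = 0.7).

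**Figure D3:**
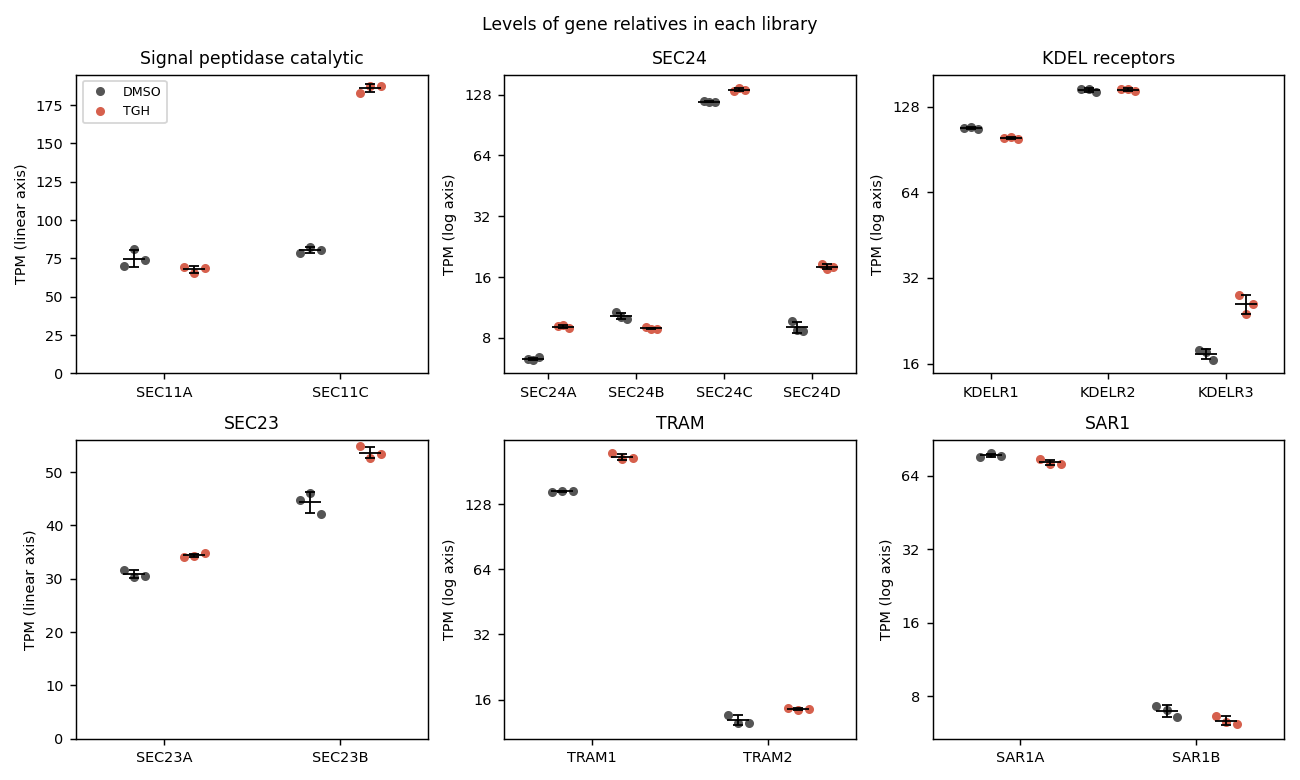
TPM of related genes in each of the 6 libraries (points, DMSO grey and TGH red; bars show mean and SD, n = 3 each). The SEC11 and SEC23 panels have a linear axis from 0, the others a log axis. SEC11C, SEC24D and KDELR3 are higher with TGH, while SEC24B and KDELR1 are lower.

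Promoters were examined because many genes of this route rose together. RefSeq windows (build GRCh38.p14) from 250 bases before to 50 bases after an annotated start were found for 49 of the 56 genes. SRPR, TRAM1, SPCS1, SEC24D, KDELR2, USO1 and ARF4 had no entry. The windows were searched on both strands for the core of the unfolded protein response element (UPRE), TGACGTGG, which reads CCACGTCA on the other strand and is known as a binding site of XBP1 and ATF6. It was present for 11 of the 49 genes (22.4%), against 0.729% of all 35116 windows and 1.24% of the 9534 tested genes with a window. Among 75 further genes of the pathway with a window 5 held it (6.67%), namely STX5 and SCFD1, which were called higher, ARF1, which was called lower, GBF1, which was not called, and SEC16B, which did not pass the filter. These shares are a description, and a match is neither a bound site nor a cause.

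Below are the 250 bases before the start, read in the direction of the gene, for 5 genes that hold the core there and rose. KDELR1 and SEC24B, relatives that fell and whose windows do not hold it, are shown too. These genes were picked by core and by change, so they cannot show whether core and change go together. Capitals mark the UPRE core on either strand. The stretches are chr22:38467846-38468095 (plus strand) for KDELR3, chr19:48391552-48391801 (minus) for KDELR1, chr5:134648535-134648784 (plus) for SEC24A, chr4:109433565-109433814 (plus) for SEC24B, chrX:153794418-153794667 (plus, the second of 2 annotated starts) for SSR4, chr11:14499812-14500061 (minus) for COPB1 and chr3:139389681-139389930 (minus, the first of 2 starts) for COPB2.
KDELR3: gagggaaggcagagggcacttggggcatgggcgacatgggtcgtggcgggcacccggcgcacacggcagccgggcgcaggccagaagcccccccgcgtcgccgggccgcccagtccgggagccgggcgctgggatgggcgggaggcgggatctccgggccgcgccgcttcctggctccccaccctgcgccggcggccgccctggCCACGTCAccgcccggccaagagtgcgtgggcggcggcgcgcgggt
KDELR1: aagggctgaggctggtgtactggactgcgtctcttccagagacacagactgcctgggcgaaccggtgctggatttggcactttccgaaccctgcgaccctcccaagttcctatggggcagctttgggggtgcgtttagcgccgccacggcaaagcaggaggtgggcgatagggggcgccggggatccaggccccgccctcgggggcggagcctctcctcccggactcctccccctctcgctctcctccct
SEC24A: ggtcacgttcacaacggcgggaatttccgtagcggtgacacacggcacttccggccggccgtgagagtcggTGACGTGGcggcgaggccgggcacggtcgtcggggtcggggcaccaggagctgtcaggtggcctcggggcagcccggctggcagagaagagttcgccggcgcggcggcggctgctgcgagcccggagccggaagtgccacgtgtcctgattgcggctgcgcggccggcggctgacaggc
SEC24B: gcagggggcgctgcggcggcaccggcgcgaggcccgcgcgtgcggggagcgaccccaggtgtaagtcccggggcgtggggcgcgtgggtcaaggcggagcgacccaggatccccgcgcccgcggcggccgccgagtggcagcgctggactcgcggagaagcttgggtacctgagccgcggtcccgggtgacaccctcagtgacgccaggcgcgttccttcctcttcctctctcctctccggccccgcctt
SSR4: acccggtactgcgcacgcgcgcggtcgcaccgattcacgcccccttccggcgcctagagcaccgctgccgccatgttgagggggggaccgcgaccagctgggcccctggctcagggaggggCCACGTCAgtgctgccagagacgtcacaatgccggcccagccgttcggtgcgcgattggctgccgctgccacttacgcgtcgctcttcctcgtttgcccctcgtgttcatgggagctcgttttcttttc
COPB1: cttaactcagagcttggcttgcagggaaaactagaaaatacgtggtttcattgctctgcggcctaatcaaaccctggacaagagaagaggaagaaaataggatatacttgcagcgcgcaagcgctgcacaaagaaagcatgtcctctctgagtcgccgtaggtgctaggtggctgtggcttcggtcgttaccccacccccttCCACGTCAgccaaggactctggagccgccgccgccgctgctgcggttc
COPB2: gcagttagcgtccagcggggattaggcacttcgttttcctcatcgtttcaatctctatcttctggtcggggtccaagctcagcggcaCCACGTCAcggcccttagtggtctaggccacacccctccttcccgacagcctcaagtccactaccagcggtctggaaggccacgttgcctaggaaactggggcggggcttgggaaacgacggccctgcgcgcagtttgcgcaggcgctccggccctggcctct

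With the base before the start as -1, the core spans -46 to -39 in KDELR3, -179 to -172 in SEC24A, -129 to -122 in SSR4, -48 to -41 in COPB1 and -163 to -156 in COPB2. COPB2 has a further copy after this start, at 31 to 38. The other 6 carriers are SSR3, SEC23A and COPA, which rose, and SRP19, SEC62 and SEC16A, which were not called. So 8 of the 11 carriers were called higher (72.7%) and 0 lower, while 27 of the 38 genes whose windows lack the core were called higher (71.1%) and 5 lower. The share called higher was nearly the same in these small groups. Genes without a window, among them SEC24D, USO1 and TRAM1, are in neither group. Whether core and change go together was not tested. SEC11C, with the largest rise, has a window without the core. Among all tested genes with a window the core was held by 118, the 11 carriers above included. Of the 118, 41.5% were called higher and 21.2% lower, with a median difference of 0.10. Over all 9534 the values were 28.6%, 27.6% and 0.01.

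Other elements of ER and amino acid stress were not found in the windows of the 49 genes. These were the ER stress response element, CCAAT and CCACG with 9 bases between them, and the related ERSE-II, ATTGG and CCACG with 1 base between them. The last was TGATGCAA, a core of amino acid response elements. Of the 9534 tested genes with a window 0.168%, 0.147% and 0.703% held them, in this order. The CCACG of the first 2 is also part of the UPRE core as read on the other strand. At such low shares few or no matches are likely among 49 genes. Absence says only that these letters are not in these windows.

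**Figure D4:**
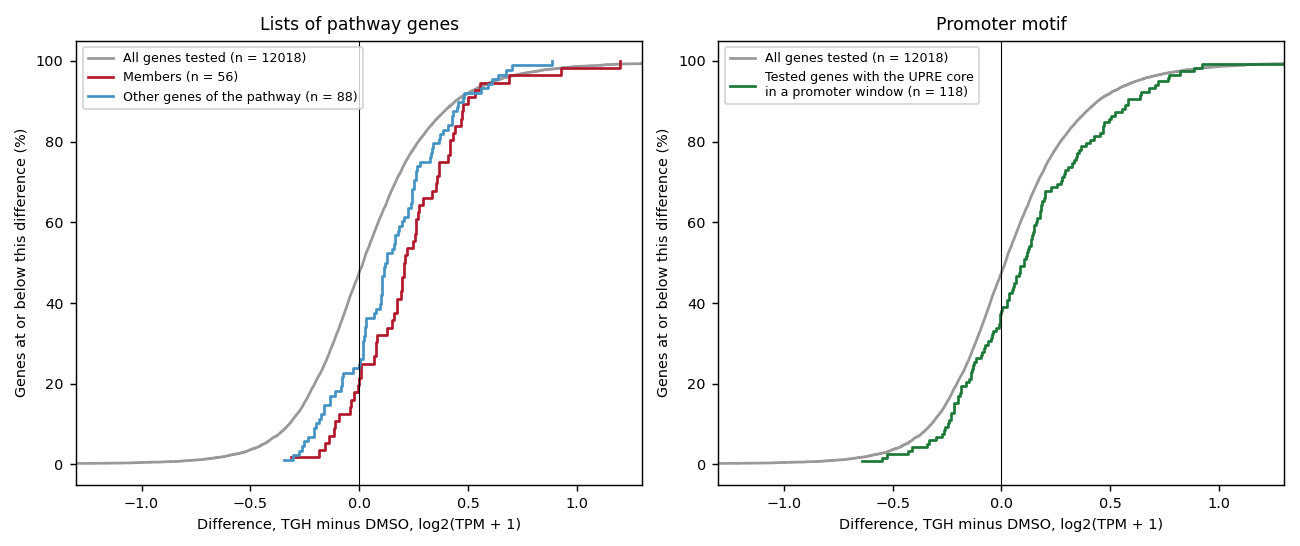
Cumulative share of genes (y axis, %) by difference between TGH and DMSO (x axis, log2(TPM + 1)). Left, the 56 genes, 88 further genes of the pathway and all 12018 tested. Right, the 118 tested genes with the UPRE core in a promoter window, 11 of the 56 included, and all tested. The curves of the 56 genes and of the further genes run to the right of all genes up to differences of about 0.4, with medians of 0.21, 0.12 and 0.02.

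A list of partners and regulators, also written with earlier results of these data known, held 92 further genes of the pathway. Of these 88 passed the filter, 47 were higher (53.4%), 17 lower (19.3%) and 24 not called, with a median of 0.12. Over all genes tested 28.9% were higher and 26.3% lower, with a median of 0.02. Of the 64 calls 17 were lost under at least 1 alternative, with BAG6 and GORASP2 losing theirs under 9 of 16. The 4 that did not pass were SEC31B, SEC16B, MIA2 and LMAN1L. MIA3, known as TANGO1, which helps bulky cargo such as procollagen into COPII vesicles, was at 8.39, 7.64 and 7.63 TPM in DMSO and 16.0, 15.1 and 15.2 TPM with TGH and rose by 0.89 (SE 0.048, adjusted p = 2.11e-05). The next largest rises were ARFGAP3, a regulator of ARF GTPases on COPI vesicles (0.70), TMED7, a p24 protein (0.67), and CTAGE5, a partner of MIA3 (0.64). Cargo receptors and p24 relatives had 12 higher (92.3%) and 1 lower (7.69%) of 13 tested, with a median of 0.21. ARF GTPases and other COPI regulators had 3 higher (25%), 4 lower (33.3%) and 5 not called of 12, with a median of 0.02. With so few genes the shares of that last group are not far from those over all genes tested.

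Insertion factors for tail-anchored and multipass membrane proteins are the GET pathway and the ER membrane complex. Of their 17 genes 9 were higher (52.9%), 4 lower (23.5%) and 4 not called, against 28.9% and 26.3% of all genes tested. SNAREs and tethers, which fuse vesicles with their target, had 14 higher (50%), 4 lower (14.3%) and 10 not called of 28. The largest falls on the list were ZW10, a tether subunit that also acts at kinetochores (-0.35), EMC8 of the ER membrane complex (-0.30), LMAN2L, a relative of LMAN2 (-0.28), and GOSR1, a Golgi SNARE (-0.26). Their adjusted p lay between 0.00138 and 0.00487, and of these 4 GOSR1 lost its call with DMSO replicate 3 as the only control (-0.18, adjusted p = 0.0539).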

How the data were processed

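RNA of 6 PC-3 libraries, 3 with TGH and 3 with DMSO, was depleted of ribosomal RNA and sequenced with a kit that keeps the strand, per the labels' protocols. The authors deposited 1 table of log2(TPM + 1) values, with 1 row per gene symbol and 1 column per library. Reads were placed on hg19, per the submitters' processing notes, while aligner, quantifier and annotation are not given there. TPM keeps no read total, so depth is unknown, and the listed TPM summed to 502380 to 518870 per library. Genes whose mean was 1 TPM or more were compared with limma 3.58.1 in R 4.3.3 (variance trend, two-sided, no block, Benjamini-Hochberg over 12018 genes), a step tested on simulated data. The members and lists were chosen with earlier results of these data known. Values per library are given for the 2 largest changes of each role group and for all relatives compared, and the 4 largest rises and falls of the further genes are named. Promoter windows come from RefSeq (GRCh38.p14) and were matched by symbol. Alternatives were a pseudocount of 0.1 or 5, no filter on low values, a mean of 5 TPM or more, quantile normalization, median scaling, other variance models, the replicate number as a block, leaving out each library, and DMSO replicate 3 as the only control.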

Additional observations from a re-analysis of the deposited data

How the results depend on the processing

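Of the 44 genes called, 40 kept their direction and call under all 16 alternatives, and ARCN1, SAR1A, SEC24B and TRAM2 lost theirs under at least 1. Another 5 genes, SAR1B, SEC11A, SRP68, SRP72 and SRPR, were called under at least 1 alternative. Of the 64 further pathway genes called, 47 kept their call under all 16 and 17 lost it under at least 1, with no reversal. The count of higher genes ranged from 37 to 41. The count of lower genes was 3 against DMSO replicate 3 alone, a comparison with fewer libraries, and 4 to 7 otherwise. The median difference of the 56 genes was 0.18 after median scaling, 0.24 after quantile normalization and 0.23 with DMSO replicate 3 as the only control, and 0.21 to 0.22 when any 1 library was left out. That of the further genes was 0.11 at a pseudocount of 5, 0.089 after median scaling and 0.16 after quantile normalization. The cause was not tested. The ratio of SAR1B to SAR1A turned to 0.0132 at a pseudocount of 5 and ranged from -0.0759 to 0.012 when 1 library was left out, the latter without DMSO replicate 1. The deviations of same-numbered libraries from their group means had correlations of 0.01, 0.05 and 0.23. The replicates numbered 3 correlated best with each other (0.23). Not every library correlated best with its own number, so the numbers were not taken as pairs. With the replicate number as a block 38 genes were higher and 4 lower, and 6231 of all genes were called in place of 6635. TPM carries no depth, so what depth limits cannot be stated.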
